A study of Mus musculus with 44 samples.

Results

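The comparison described here asks which genes differed from tumour-free lungs in wild-type lungs that had received tumour cells and were treated with recombinant TIMP2 protein. It uses 10 of the 44 samples of the study, 5 treated and 5 tumour-free, chosen by their sample titles in the table of the intratracheal experiment. All mice were C57BL6j with the wild-type (WT) genotype. The treated mice had been given LL/2-Luc2 cells into the trachea, 1 M per mouse, and 200 µg per kg of recombinant human TIMP2 (rTIMP2) a day by intraperitoneal injection. LL/2-Luc2 is a Lewis lung carcinoma line, derived from a lung tumour of this mouse strain, with a luciferase reporter. The tumour-free mice serve as the reference, and 5 WT mice given the same cells and the vehicle HBSS are set beside them. A treated group without tumour cells was not used here, so effects of the tumour cells and of the protein cannot be told apart in the main comparison. Each library was made from polyA RNA of about 3 mm3 of lung. The labels give neither the age and sex of the mice nor the hour and day of collection, and the tumour-free mice have sample numbers from 331 to 353 against 11 to 15 for the treated mice. Nothing in the labels says how mice were allotted, so a difference between cohorts cannot be told apart from the groups either.

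TIMP2 is a secreted inhibitor of the matrix metalloproteinases, the enzymes that cut collagen, elastin and other matrix proteins. It also binds the membrane-anchored MMP14 and takes part with it in the activation of pro-MMP2. The healthy lung is built of a dense capillary endothelium, alveolar type 1 and type 2 epithelium, club and ciliated airway cells, fibroblasts that lay down collagen and elastin, and resident macrophages. In bulk tissue, fewer cells of a type and less RNA per cell cannot be told apart.

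The values are the authors' normalized counts, called normalized values below, with 1 value per gene and library. Estimated from the step between low values, the depth was 13.2 to 14.1 M reads per library in tumour-free and 12.3 to 15.4 M in treated lungs (M for mega). Differences are treated minus tumour-free means of log2(value + 1), tested with limma across 16815 genes, with calls made where the Benjamini-Hochberg adjusted p was below 0.05. With this rule 35 genes (0.208%) were called, 12 higher (0.0714%) and 23 lower (0.137%) in treated lungs. At an unadjusted p under 0.05 there were 2868. The median difference over all genes was -0.03. The labels give each library as a sample of its own and no more, so p-values here rest only on the spread among these libraries, part of which may be technical.

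The treated lungs were not alike. The reporter, listed as Luc, was at 0 in all 5 tumour-free libraries and at 23.3, 0, 0, 67.7 and 0 in treated replicates 1 to 5. Reporter transcripts were thus listed in treated replicates 1 and 4 and at 0 in replicates 2, 3 and 5, while HBSS lungs had 39.3 to 69.2. The mean difference from tumour-free lungs was 18.2 (two-sided exact permutation test p = 0.44). With values above 0 only in treated replicates 1 and 4, no arrangement gives a smaller p. The test could thus not pass and decides nothing. Where all values differ, 0.0079 is the smallest p that 5 against 5 can give. Hmga2, which encodes an AT-hook protein of chromatin found in embryos and in many tumours (chr10:120361275-120476469, mm10), was at 17.3, 12.6, 27.8, 15.6 and 16.3 in tumour-free lungs. In treated lungs it was at 1198, 23.5, 32.1, 2780 and 13.6, so that replicates 1 and 4 were again high and the other replicates within or next to the tumour-free range. The log2 difference of Hmga2 was 2.85 (exact permutation p = 0.095, 0.19 adjusted over both tests).

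Sex-linked transcripts separated the groups. Xist, the RNA that silences one X chromosome in female cells, was at 5057, 4516, 5012, 4210 and 4118 in tumour-free lungs and at 1963, 42.2, 92.4, 2033 and 54.5 in treated lungs. It was high in every tumour-free library, intermediate in treated replicates 1 and 4 and low in replicates 2, 3 and 5. Ddx3y, an RNA helicase gene of the Y chromosome, was at 5.78, 4.85, 0.958, 4.87 and 1.02 in tumour-free and 686, 1024, 1067, 633 and 1321 in treated lungs. The HBSS lungs held both transcripts, with Xist at 2399 to 6691 and Ddx3y at 209 to 672. The Y-linked genes Ddx3y, Uty, Kdm5d and Eif2s3y make up 4 of the 12 genes called higher, with log2 differences (limma adjusted p from 3.08e-06 to 1.93e-05) of 7.86, 7.00, 6.96 and 7.47. Kdm6a, an X-linked gene that escapes silencing, had a difference of -1.06 ± 0.19 (SE, limma adjusted p = 0.0640). The X-linked Ddx3x, Kdm5c and Eif2s3x had smaller differences of -0.67, -0.51 and -0.17 (limma adjusted p = 0.104, 0.115 and 0.629). The values of Eif2s3x overlapped between the groups. For the other 31 called genes the part of this sex-chromosome difference was not tested, and with no tumour-free library holding Y transcripts at the level of the treated ones it cannot be told apart from the groups.

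**Figure D1:**
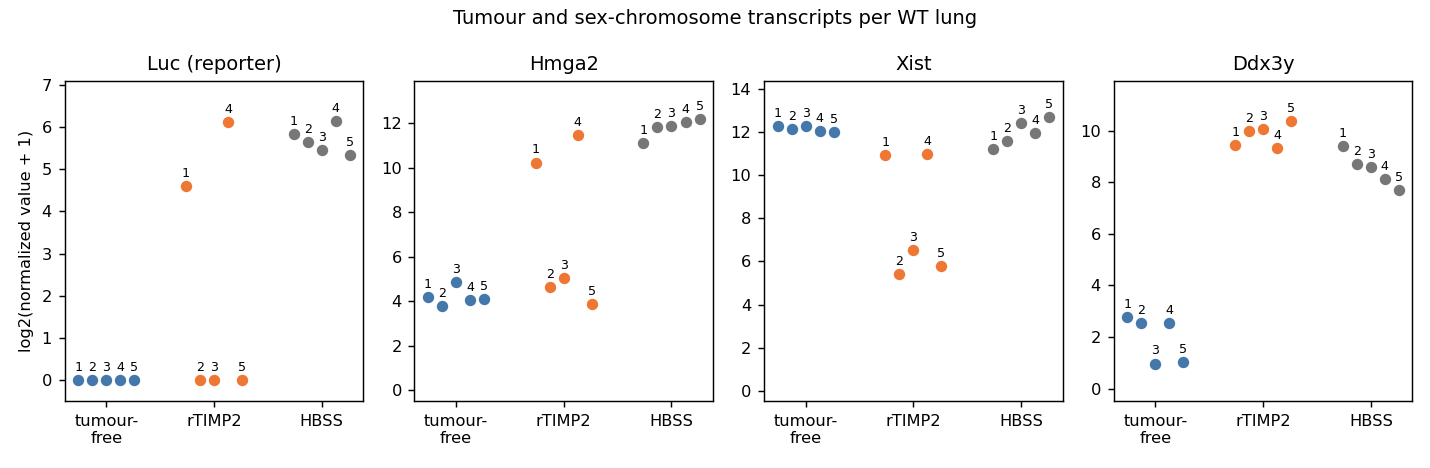
Each panel plots log2(normalized value + 1) of one transcript in the 5 tumour-free, 5 rTIMP2 and 5 HBSS lungs of WT mice, with 1 point per library labelled by its replicate number. Treated replicates 1 and 4 hold Luc, Hmga2 and Xist, replicates 2, 3 and 5 have Luc at 0 and low Xist, and all 5 treated libraries hold Ddx3y.

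Across 14047 genes with a mean value of 50 or more in the 15 WT libraries, the distance from the tumour-free range differed from one treated lung to the next. In treated replicates 1 to 5, 726 (5.17%), 378 (2.69%), 1170 (8.33%), 5062 (36.0%) and 90 (0.641%) genes lay more than 2-fold above or below all tumour-free values. A tumour-free library set against the other 4 had 9 to 43 such genes, and HBSS lungs had 2054 to 5685. Replicate 4 was in the range of the HBSS lungs, and replicate 5 was the treated library nearest to the tumour-free lungs. Of the 5062 genes in replicate 4, 2092 were above and 2970 below the range. Mitochondrial transcripts made up 1.80 to 2.06% of the values in tumour-free and 2.16 to 4.47% in treated lungs, and their part in the results was not tested. Correlations of log2 values between the libraries of a group ran from 0.804 to 0.968 in treated and from 0.983 to 0.989 in tumour-free lungs.

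**Figure D2:**
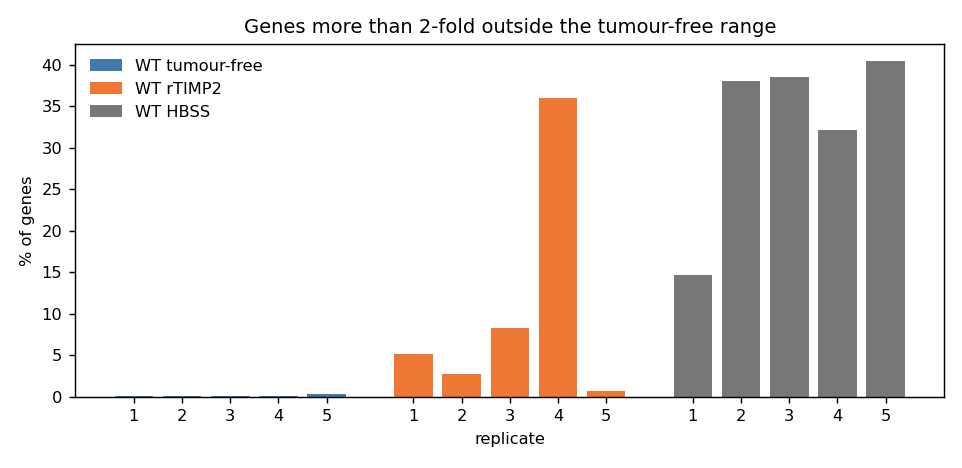
Bars give, for each WT library, the percentage of 14047 genes that lay more than 2-fold outside the range of the tumour-free libraries (for a tumour-free library, of the other 4). Treated replicate 4 reached 36.0% and treated replicate 5 reached 0.641%.

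All 35 calls had no overlap between the 5 treated and the 5 tumour-free values. Without overlap, 381 genes (2.27%) were higher and 1102 (6.55%) lower over all genes tested. Since replicates 1 and 4 carried reporter transcripts, the fit was repeated without them, which called 736 genes (4.28%, 1.19% higher and 3.09% lower), and all 35 genes were among these. A fit without replicates 2, 3 and 5, chosen after seeing the data, called 6309 (35.9%, 14.4% higher and 21.5% lower), again with all 35. Since no called gene overlapped between the groups, its direction in these fits was fixed by that choice and is no sign of stability. Both fits reuse values that chose the 35 genes, so the repeated calls are no independent support either. The reporter values behind the split come from these same libraries. Leaving out replicate 4 alone gave 703 calls, and leaving out replicate 1 alone gave 19. HBSS lungs against the same tumour-free lungs gave 11962 calls of 16967 (70.5%). All 31 genes had the same direction there and 29 were called, the exceptions being Igfbp3 and Gm10167. The tumour-free lungs are shared by both comparisons, so this count is no independent support.

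**Figure D3:**
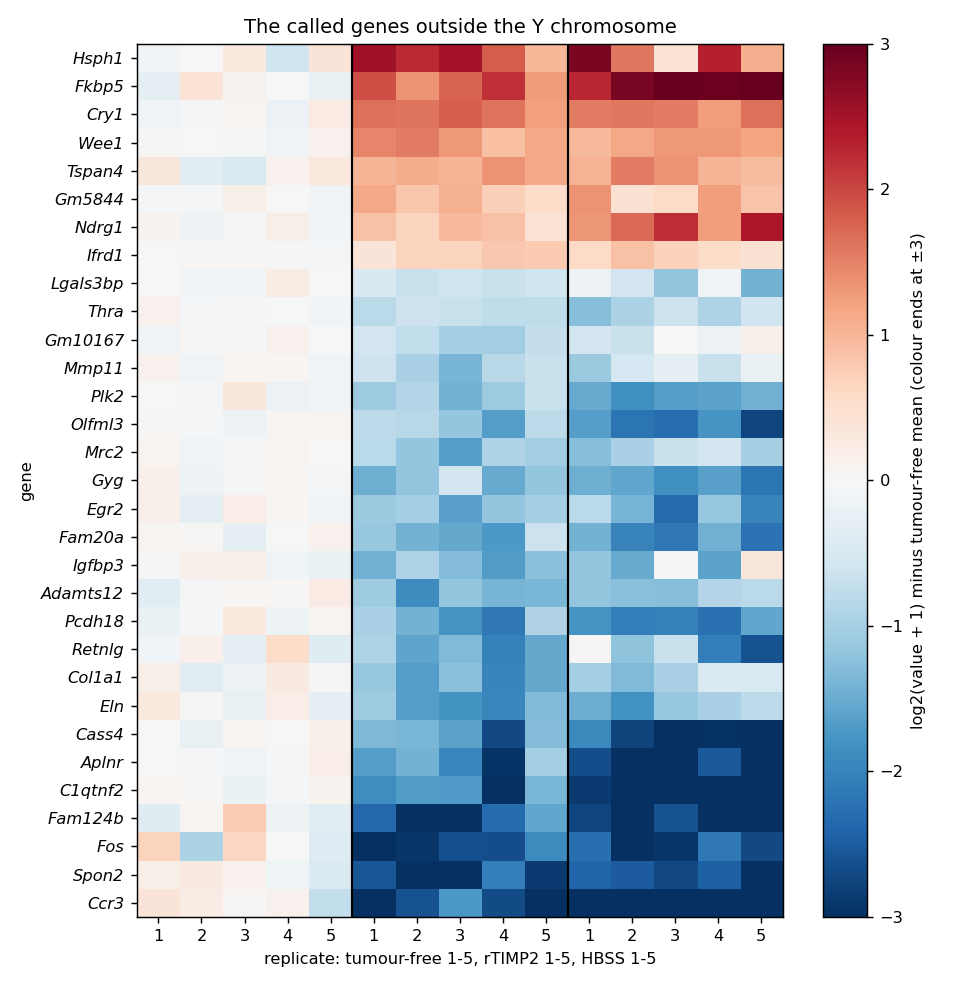
Colour gives log2(value + 1) minus the tumour-free mean for the 31 called genes outside the Y chromosome (rows) in the 15 WT libraries (columns), ending at 3 in either direction. The 8 genes at the top were above, and the 23 below them under, every tumour-free value in all 5 treated lungs.

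Among the genes called higher, Cry1 and Wee1 belong to the circadian clock and to a gene set that the clock controls. Clock proteins form a feedback loop in which Arntl (Bmal1) with Clock or Npas2 activates genes through E-boxes, and Per and Cry proteins repress that activity, so levels of these transcripts change over each day in most tissues, the lung included. Cry1 (chr10:85131700-85185064), a repressor of the loop, was at 139.6, 144, 159, 132 and 176 in tumour-free and 474, 453, 516, 466 and 351 in treated lungs. Each treated lung, replicates 4 and 5 included, lay above each tumour-free lung. The log2 difference was 1.58 ± 0.14 (SE, limma adjusted p = 0.000798), and HBSS lungs were at 357 to 474, with a treated minus HBSS difference of 0.06 ± 0.14 (SE, limma adjusted p = 0.744). Wee1 (chr7:110122046-110143286), the kinase that holds back entry into mitosis by phosphorylating Cdk1, was at 226, 218, 215, 206 and 244 in tumour-free lungs and at 613, 656, 552, 412 and 495 in treated lungs. The highest tumour-free value lay below the lowest treated value. The difference was 1.28 ± 0.14 (SE, limma adjusted p = 0.00501). Both calls were kept in each fit that left out 1 library.

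Of the 19 clock genes listed, Cry1 alone was called in the comparison of all 10 libraries, and the median log2 difference was 0.55 against -0.03 over all genes. Without replicates 1 and 4, 12 were called higher and 3 lower (1.19 and 3.09% of all genes), with a median of 1.01 against 0.00 over all genes. Without replicates 2, 3 and 5, 1 was called higher and 3 lower (14.4 and 21.5% of all genes), with a median of -0.02 against -0.10 over all genes. Most of these calls were thus made in 1 of the 2 fits. Cry1, Cry2, Per1, Per2, Per3, Tef, Hlf, Nr1d2, Bhlhe41, Ciart and Usp2 were among the genes called higher in the fit without replicates 1 and 4. Those called lower in it were Arntl, Npas2 and Nr1d1. Apart from Cry1 and Arntl, the clock genes given with values below were picked after their values were seen. Per2, a repressor partner of Cry1, was at 354, 239, 249.9, 277 and 389.9 in tumour-free and 1396, 1965, 1405, 272 and 1237 in treated lungs. Replicates 1, 2, 3 and 5 were high and replicate 4 was within the tumour-free range, where HBSS replicates 2, 3 and 4 also lay. Over all 5 treated lungs the difference was 1.83 ± 0.46 (SE, limma adjusted p = 0.140), and without replicates 1 and 4 it was 2.34 ± 0.20 (SE, limma adjusted p = 0.000593). Arntl, the activator, was at 149, 209, 246, 185 and 131 in tumour-free lungs and 82.2, 53.2, 45.9, 147 and 32.4 in treated lungs. Its 2 highest treated values were those of replicates 1 and 4, and HBSS lungs were at 135 to 275. Over all 5 treated lungs the difference was -1.51 ± 0.37 (SE, limma adjusted p = 0.138), and without replicates 1 and 4 it was -2.04 ± 0.23 (SE, limma adjusted p = 0.00275). Hlf, a clock output transcription factor of the PAR bZIP family, was at 395, 359.7, 292, 369 and 501 in tumour-free and 619, 971, 897, 50.6 and 894 in treated lungs, with replicate 4 alone below the tumour-free range. In HBSS lungs Hlf was at 13.1 to 305. Tef, of the same family, was at 2477 to 3675 in tumour-free lungs and 4942, 7249, 6638, 1724 and 7806 in treated lungs, again with replicate 4 below and the others above. HBSS lungs against tumour-free lungs had 3 clock genes called higher and 10 called lower (32.8 and 37.7% of all genes). The labels state a daily cycle of light and dark without the hour of collection, so the hour and the group cannot be told apart for these genes.

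**Figure D4:**
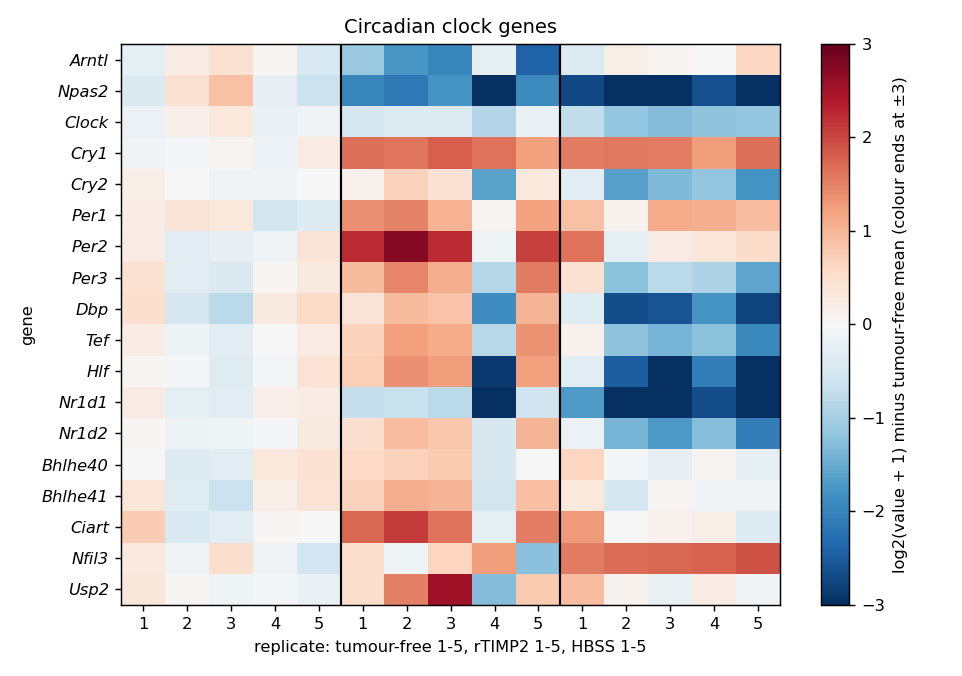
Colour gives log2(value + 1) minus the tumour-free mean for 18 of the 19 clock genes (rows) in the 15 WT libraries (columns), ending at 3 in either direction. Cry1 was above the tumour-free values in all treated and HBSS lungs, whereas Per2, Tef and Hlf were high in treated replicates 1, 2, 3 and 5 and not in replicate 4.

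The promoters of clock genes are shown because the E-box, the sequence CACGTG, is the element bound by the Arntl and Clock pair. In windows of 250 bases before to 50 bases after each start (RefSeq, GRCm38.p6), 2187 of 27025 genes (8.09%) held CACGTG in at least 1 of their windows, which reads the same on both strands. Of the 16 clock genes with a window, 5 held it, namely Bhlhe41, Ciart, Cry1, Per1 and Tef. Of the 8 called higher genes outside the Y chromosome, 5 had a window and 4 of these held it (Cry1, Fkbp5, Hsph1 and Tspan4), and of the 16 called lower genes with a window 3 did (C1qtnf2, Egr2 and Gyg). These are matches of letters and no measured binding. The 250 bases before the start of Cry1 (chr10:85185055-85185304, minus strand), Per1 (chr11:69098699-69098948, plus strand), Tef (chr15:81811164-81811413, plus strand) and Fkbp5 (chr17:28486150-28486399, minus strand) follow, with the E-box in capitals.
Cry1: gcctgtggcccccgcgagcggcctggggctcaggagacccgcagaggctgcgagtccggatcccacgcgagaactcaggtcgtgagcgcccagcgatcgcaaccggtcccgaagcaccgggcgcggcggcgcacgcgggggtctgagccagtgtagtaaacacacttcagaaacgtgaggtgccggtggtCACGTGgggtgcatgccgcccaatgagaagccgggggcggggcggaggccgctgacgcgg
Per1: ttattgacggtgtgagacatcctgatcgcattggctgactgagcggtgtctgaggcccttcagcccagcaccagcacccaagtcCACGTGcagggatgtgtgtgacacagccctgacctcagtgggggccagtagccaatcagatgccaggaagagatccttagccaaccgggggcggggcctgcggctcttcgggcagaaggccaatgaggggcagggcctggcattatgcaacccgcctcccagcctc
Tef: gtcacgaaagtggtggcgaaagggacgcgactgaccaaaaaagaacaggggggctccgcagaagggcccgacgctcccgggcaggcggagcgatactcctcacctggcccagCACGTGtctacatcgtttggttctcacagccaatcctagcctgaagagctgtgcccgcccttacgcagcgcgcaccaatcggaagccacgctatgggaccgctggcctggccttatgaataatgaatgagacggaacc
Fkbp5: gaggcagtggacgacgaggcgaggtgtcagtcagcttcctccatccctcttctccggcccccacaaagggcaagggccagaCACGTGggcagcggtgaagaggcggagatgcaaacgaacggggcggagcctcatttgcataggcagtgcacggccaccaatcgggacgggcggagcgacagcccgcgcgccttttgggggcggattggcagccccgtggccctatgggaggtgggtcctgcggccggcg
The E-box ends 55 bases before this start in Cry1, 161 in Per1, 133 in Tef and 164 in Fkbp5. RefSeq lists another start of Per1, whose upstream bases (chr11:69099902-69100151) hold no CACGTG, and another of Tef (upstream bases chr15:81802423-81802672), where the E-box ends 122 bases before the start.

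Fkbp5 (chr17:28399094-28517527) encodes a co-chaperone of Hsp90 that is induced by the glucocorticoid receptor and in turn lowers its hormone binding. It was at 279, 459.6, 369.6, 346 and 293 in tumour-free and 1327, 872, 1159, 1572 and 838 in treated lungs, and replicates 1 and 4 were the highest. The difference was 1.70 ± 0.20 (SE, limma adjusted p = 0.00991), and the call was lost without tumour-free replicate 4 (limma adjusted p = 0.0513). HBSS lungs were higher still, at 1665, 2497, 3570, 2634 and 3882, with a treated minus HBSS difference of -1.28 ± 0.26 (SE, limma adjusted p = 0.0398). Of the 14 glucocorticoid and metal response genes listed Fkbp5 was the 1 called, with a median of 0.53 for the list. Mt2, a metallothionein that binds zinc and copper, was at 79.9, 90.2, 77.6, 86.8 and 65.1 in tumour-free lungs and 216, 261, 679, 618 and 144 in treated lungs. These groups did not overlap, yet the difference of 2.00 ± 0.40 (SE, limma adjusted p = 0.0891) did not pass. Tsc22d3, another glucocorticoid receptor target, had a difference of 0.67 ± 0.38 (SE, limma adjusted p = 0.348) with overlapping values.

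Hsph1 (chr5:149614287-149636376), the Hsp110 nucleotide exchange factor that works with Hsp70, was at 619, 658, 807, 431 and 850.0 in tumour-free and 3815, 3117, 3703, 2293 and 1314 in treated lungs. Replicate 5 was the lowest treated lung and still above every tumour-free lung, and the difference was 2.02 ± 0.30 (SE, limma adjusted p = 0.0325). The call was lost without any tumour-free replicate and without treated replicates 1, 2 or 3 (highest limma adjusted p = 0.128). Of the 23 chaperones listed Hsph1 was the 1 called, and the median was 0.68. All 23 had a difference above 0 (7989 of 16815 over all genes), and 10 were higher without overlap (2.27% of all genes). Hspa8, the constitutive Hsp70, was at 10245, 9524, 10918, 8012 and 10987 in tumour-free and 24028, 20280, 23818, 26718 and 12968 in treated lungs, a difference of 1.08 ± 0.21 (SE, limma adjusted p = 0.0877). For Hsp90aa1 the difference was 0.82 ± 0.14 (SE, limma adjusted p = 0.0525). The stress-inducible Hspa1a varied within both groups, at 3115, 999, 4305, 483 and 558 in tumour-free and 4153, 3792, 6209, 387 and 189 in treated lungs, and reads of its near-identical copy Hspa1b may be split between them. Without replicates 1 and 4, 6 chaperones were called higher (1.19% of all genes), and without replicates 2, 3 and 5, 16 were (14.4% of all genes). The heat shock element, 3 alternating and inverted units spelled GAANNTTCNNGAA or TTCNNGAANNTTC, was present in the windows of 179 genes (0.662%) and of 4 of the 18 chaperones with a window (Chordc1, Hspd1, Hspe1 and Hsph1). The 2 spellings together cover both strands.

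The other genes called higher were Tspan4, Ndrg1, Ifrd1 and the gene model Gm5844. Tspan4, a tetraspanin of migrasomes, was at 1089, 686, 635, 953 and 1076 in tumour-free and 1747, 1885, 1750, 2221 and 1912 in treated lungs, a difference of 1.13 ± 0.17 (SE, limma adjusted p = 0.0325). Ndrg1, a stress and hypoxia response gene, was at 605, 511, 544, 639.6 and 531 in tumour-free and 1037, 903, 1112, 1032 and 764 in treated lungs. The treated lungs lay between the tumour-free and the HBSS lungs, which were at 1338 to 3037, and the difference from tumour-free lungs was 0.77 ± 0.12 (SE, limma adjusted p = 0.0428). Ndrg1 was the 1 called of 19 hypoxia and glycolysis genes tested. Egln3, the oxygen-sensing prolyl hydroxylase of that list, was at 33 to 55 in tumour-free lungs and 248, 392, 1278, 1081 and 28.2 in treated lungs, with replicate 5 below the tumour-free range, the others above it, and a difference of 3.01 ± 0.87 (SE, limma adjusted p = 0.178). Ifrd1, a transcriptional coregulator, was at 658 to 687 in tumour-free and 877 to 1169 in treated lungs, with a difference of 0.66 ± 0.10 (SE, limma adjusted p = 0.0325).

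Timp2 itself (chr11:118301069-118355740) was at 10316, 10546, 10598, 10147 and 11489 in tumour-free lungs and 10119, 9998, 8046, 5809 and 9685 in treated lungs. The injected protein adds no Timp2 transcript, so these are levels of the mouse gene. All 5 treated values lay below the lowest tumour-free value, replicate 1 by a small margin, and the difference of -0.31 ± 0.18 (SE, limma adjusted p = 0.344) did not pass. Of the 26 metalloproteinase and inhibitor genes tested, Mmp11 was the 1 called and 6 were lower without overlap (6.55% of all genes), with a median of -0.19. Mmp11, stromelysin 3, was at 702, 600.2, 670.3, 668 and 586 in tumour-free and 417, 325, 243, 359 and 404 in treated lungs, a difference of -0.90 ± 0.15 (SE, limma adjusted p = 0.0493) that lies just inside the threshold. Mmp2, gelatinase A, was at 1811, 1310, 1177, 2101 and 1623 in tumour-free and 683, 709, 864, 203 and 819.5 in treated lungs, with no overlap and a difference of -1.42 ± 0.37 (SE, limma adjusted p = 0.145). Mmp14, its membrane-bound activator, was at 850.3 to 1112 in tumour-free lungs and 2210, 516, 516, 3864 and 515 in treated lungs. Replicates 1 and 4 were above and the other 3 treated lungs below the tumour-free range, so the difference over all 5 was 0.13 ± 0.55 (SE, limma adjusted p = 0.898) and without replicates 1 and 4 it was -0.87 ± 0.11 (SE, limma adjusted p = 0.00327). Timp1 followed the reporter less closely, at 225, 53.2, 226, 402 and 50.1 in treated lungs against 46.9 to 78 in tumour-free lungs, with replicate 3 also high. Adamts12, a secreted metalloproteinase of the ADAMTS family, was at 53, 65, 69.9, 68.2 and 79.4 in tumour-free and 31.5, 17.4, 28.7, 24.5 and 25.1 in treated lungs, and the difference was -1.38 ± 0.22 (SE, limma adjusted p = 0.0373).

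Of structural matrix genes, Col1a1 and Eln fell in treated lungs. Col1a1 (chr11:94936224-94953042), the main chain of type I collagen, was at 6112, 4311, 4757, 6544 and 5522 in tumour-free and 2441, 1717, 2275, 1358 and 1868 in treated lungs. The highest treated lung was below the lowest tumour-free lung, with a difference of -1.51 ± 0.19 (SE, limma adjusted p = 0.0105). HBSS lungs were at 2657, 2159, 2732, 3991 and 3952, and treated minus HBSS was -0.67 ± 0.22 (SE, limma adjusted p = 0.0475). Eln (chr5:134702593-134747323), elastin of the elastic fibres, was at 3328, 2768, 2322, 3091 and 2194 in tumour-free lungs and 1286, 862, 778, 694 and 1072 in treated lungs, a difference of -1.56 ± 0.19 (SE, limma adjusted p = 0.0102). HBSS lungs were at 763 to 1566, which overlaps the treated values. The Col1a1 call was lost without tumour-free replicate 1 or 4 (highest limma adjusted p = 0.0539) and the Eln call without replicate 4 (0.0513). Mrc2, the Endo180 receptor that takes up collagen fragments, was at 1957, 1681, 1757, 1959 and 1843 in tumour-free and 1042, 823, 586, 972 and 885 in treated lungs, a difference of -1.12 ± 0.15 (SE, limma adjusted p = 0.0185).

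Of the 28 collagen and matrix genes listed, Col1a1 and Eln were called, and the median difference was -0.71. Without overlap, 10 were lower and none higher (6.55 and 2.27% of all genes). Without replicates 1 and 4, 14 were called lower and none higher (limma, 3.09 and 1.19% of all genes), with a median of -0.68. Without replicates 2, 3 and 5, 9 were called higher and 15 lower (14.4 and 21.5% of all genes), with a median of -0.94. Loxl1, which crosslinks elastin, was at 2512, 2054, 2198, 2515 and 2528 in tumour-free and 1006, 729, 839, 262 and 851 in treated lungs, and its difference of -1.81 ± 0.32 (SE, limma adjusted p = 0.0617) did not pass. Fbn1, fibrillin 1 of the elastic fibre, was at 1656 to 1765 in tumour-free lungs and 1474, 619.9, 809, 1710 and 743 in treated lungs, low in replicates 2, 3 and 5. Col3a1, type III collagen, was at 5206 to 9439 in tumour-free lungs and 19600, 2659, 7173, 28270 and 2975 in treated lungs. Its high values in replicates 1 and 4 went with the reporter, and HBSS lungs had 21783 to 72436. Fn1 and Thbs2, matrix genes with the same 2 treated lungs on top, were at 19670, 4172, 5889, 18121 and 4216 and at 2190, 79.8, 211, 3593 and 73.1 in treated lungs.

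Spon2 (chr5:33198184-33218455), a secreted matrix protein of the spondin family, had the lowest adjusted p among the genes called lower. It was at 463, 500.3, 447, 378 and 302 in tumour-free and 69, 47.1, 43.6, 97.9 and 55.3 in treated lungs, a difference of -2.76 ± 0.24 (SE, limma adjusted p = 0.000776), and replicate 4 was the highest of the treated lungs. HBSS lungs were at 28.2 to 77.1, and treated minus HBSS was 0.02 ± 0.35 (SE, limma adjusted p = 0.976). Igfbp3 (chr11:7206086-7213923), which binds insulin-like growth factors, was at 2550, 2907, 2933, 2391 and 2270 in tumour-free and 963, 1372, 1049, 809.6 and 1096 in treated lungs, a difference of -1.32 ± 0.15 (SE, limma adjusted p = 0.00618). HBSS lungs were uneven for this gene, at 1151, 911, 2480, 859 and 3261, and their difference from tumour-free lungs was -0.80 ± 0.35 (SE, limma adjusted p = 0.0594). The Spon2 and Igfbp3 calls were kept in each fit that left out 1 library. Of the 35 calls 8 had this property, namely Spon2, Igfbp3, Cry1, Wee1 and the Y-linked genes. Fos, Fkbp5, Eln and Col1a1 were called in 8 or 9 of the 10 fits that left out 1 library, and the remaining 23 genes in 2 to 5 of them.

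Of the immediate early genes, which are transcribed within minutes of a stimulus, Fos and Egr2 fell. Fos (chr12:85473890-85477273), a subunit of the AP-1 factor, was at 3421, 1115, 3294, 2153 and 1646 in tumour-free lungs and 228, 280.3, 344, 339.5 and 564 in treated lungs. Every treated value was below every tumour-free value although the tumour-free lungs spread over a wide range, and the difference was -2.67 ± 0.33 (SE, limma adjusted p = 0.0118). HBSS lungs were at 216 to 479. The Fos call was lost without tumour-free replicate 4 (limma adjusted p = 0.0580). Egr2, a zinc finger transcription factor, was at 152, 113, 157, 141 and 124 in tumour-free and 62.9, 66.5, 43.6, 60.4 and 66.8 in treated lungs, a difference of -1.19 ± 0.18 (SE, limma adjusted p = 0.0325). Of the 20 immediate early genes listed Fos and Egr2 were the 2 called, and 8 were lower without overlap (6.55% of all genes), with a median of -0.69. Egr1, with 2697, 942, 2300, 2358 and 1572 in tumour-free and 288, 435, 508, 305 and 936 in treated lungs, had a difference of -2.04 ± 0.37 (SE, limma adjusted p = 0.0640). Plk2, outside that list, a polo-like kinase that is serum-inducible, was at 1516, 1493, 1931, 1367 and 1417 in tumour-free and 724, 835, 572, 719 and 959 in treated lungs, a difference of -1.03 ± 0.15 (SE, limma adjusted p = 0.0325). Fosb, Atf3 and Egr3 of the immediate early list had overlapping values and differences of -0.58, 0.10 and 0.03.

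Among vascular genes Aplnr (chr2:85136225-85139923), the apelin receptor of endothelial cells, was called. It was at 1266, 1202, 1176, 1223 and 1431 in tumour-free and 399.8, 469.5, 325, 163 and 620.1 in treated lungs, with a difference of -1.79 ± 0.29 (SE, limma adjusted p = 0.0457). HBSS lungs were lower, at 28.2 to 220.1, and treated minus HBSS was 1.75 ± 0.56 (SE, limma adjusted p = 0.0450). Aplnr was the 1 called of 18 pulmonary endothelial markers, of which 9 were lower without overlap (6.55% of all genes), and the median was -0.98. Summed over the list, values were 108151 to 120494 in tumour-free and 17810 to 111290 in treated lungs. Cdh5, the VE-cadherin of endothelial junctions, was at 12536, 13414, 14865, 12471 and 13801 in tumour-free and 8307, 8416, 5375, 1383 and 12027 in treated lungs. Its difference of -1.22 ± 0.49 (SE, limma adjusted p = 0.263) did not pass, and replicate 5 was next to the tumour-free range. Without replicates 1 and 4, 6 endothelial markers were called lower with a median of -0.51, and without replicates 2, 3 and 5, 16 were. In HBSS lungs 17 of 18 were called lower. The shares of all genes called lower in these 3 fits were 3.09, 21.5 and 37.7%.

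Cass4, a scaffold protein of focal adhesions, was at 192, 160.5, 199, 187 and 210.0 in tumour-free and 73.1, 72.1, 61.8, 28.2 and 76.5 in treated lungs, a difference of -1.66 ± 0.27 (SE, limma adjusted p = 0.0428). C1qtnf2, a secreted protein with a C1q and TNF related domain, was at 479, 471, 397, 446 and 495 in tumour-free and 124, 143, 139, 52.2 and 175 in treated lungs, a difference of -1.94 ± 0.28 (SE, limma adjusted p = 0.0322). HBSS lungs were lower than treated lungs for both genes, at 10.9 to 48.4 and 11.1 to 61. Fam124b was at 55.9, 76.6, 123, 65.3 and 57 in tumour-free and 13.2, 7.16, 4.59, 13.9 and 24 in treated lungs, with a difference of -2.62 ± 0.41 (SE, limma adjusted p = 0.0373). Pcdh18, a protocadherin, was at 722 to 1031 in tumour-free and 188 to 442 in treated lungs, with a difference of -1.45 ± 0.23 (SE, limma adjusted p = 0.0428). Thra, the thyroid hormone receptor alpha, differed little between the lungs of a group, at 2523, 2220, 2371, 2274 and 2177 in tumour-free and 1329, 1491, 1465, 1368 and 1366 in treated lungs. Its difference was -0.72 ± 0.09 (SE, limma adjusted p = 0.0127). The remaining genes called lower were Gyg, glycogenin, the primer of glycogen synthesis (-1.17), the pseudokinase Fam20a (-1.29), the secreted Olfml3 (-1.04) and Lgals3bp (-0.61), and the gene model Gm10167 (-0.81).

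Of white blood cell genes, Retnlg and Ccr3 were called lower. Retnlg, a resistin-like protein of neutrophils, was at 188, 221, 165, 291 and 153 in tumour-free and 105, 65.5, 78, 48.2 and 67.9 in treated lungs, a difference of -1.48 ± 0.24 (SE, limma adjusted p = 0.0457). It was the 1 called of 7 neutrophil genes tested, whose median was 0.06. Ccr3, the eotaxin receptor of eosinophils, was at 48.2, 42.7, 37.3, 40.0 and 21.4 in tumour-free and 3.04, 5.11, 10.3, 4.9 and 2.09 in treated lungs, a difference of -2.77 ± 0.38 (SE, limma adjusted p = 0.0185). These low values understate a fold change on the log2(value + 1) scale. Siglecf, present on eosinophils and alveolar macrophages, was at 237, 307, 218, 293 and 261 in tumour-free and 102, 135, 78, 27.7 and 104 in treated lungs, with no overlap and a difference of -1.70 ± 0.37 (SE, limma adjusted p = 0.104). Chil3, a chitinase-like protein of alveolar macrophages, was at 4701, 8446, 7154, 6856 and 6406 in tumour-free and 3369, 3427, 2292, 1180 and 3270 in treated lungs, and its difference was -1.39 ± 0.30 (SE, limma adjusted p = 0.104). No alveolar macrophage marker of 11 was called by limma, and 8 had an unadjusted p under 0.05 (2868 of 16815 over all genes). Without replicates 1 and 4, 4 were called lower, against 10 without replicates 2, 3 and 5 (3.09 and 21.5% of all genes).

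Tests of treated against HBSS lungs called 4619 of 16908 genes (27.3%), but the count was 0 when any 1 of 8 of these 10 libraries was left out (limma, 6134 to 7175 at an unadjusted p under 0.05), namely all but treated replicate 4 and HBSS replicate 1. The 31 genes were chosen by their difference from tumour-free lungs in these same treated lungs, so counts among them are no independent support. Of these genes, 29 were tested and 9 were called, beside 27.3% of all genes. Treated lungs lay nearer to tumour-free lungs than HBSS lungs did for 7 of them, Fkbp5, Ndrg1, Plk2, Olfml3, Aplnr, C1qtnf2 and Cass4, and further from them for Col1a1 and Gm10167. The other 20, among them Cry1, Wee1, Hsph1, Fos, Eln and Spon2, were not called, with treated minus HBSS differences of 0.06 ± 0.14 (SE) for Cry1, 0.37 ± 0.46 for Hsph1 and 0.00 ± 0.28 for Fos.

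The lists of lung cell types held few calls. None of the 12 alveolar type 2, 10 alveolar type 1, 10 club and secretory and 12 ciliated cell markers was called by limma. Of these lists 8, 2, 0 and 1 markers had an unadjusted p under 0.05, against 2868 of 16815 over all genes. Their medians were -0.77, -0.52, -0.51 and -0.73. Sftpc, the surfactant protein that marks type 2 cells, was at 189395, 183231, 169504, 215943 and 174934 in tumour-free and 111639, 170056, 107764, 54067 and 195997 in treated lungs. Scgb1a1, the secretoglobin of club cells, was at 332871, 345449, 292660, 307220 and 308456 in tumour-free and 191399, 351691, 232431, 58396 and 341128 in treated lungs. Both genes were lowest in replicate 4, and replicates 2 and 5 were within or above the tumour-free range for Scgb1a1. In HBSS lungs Scgb1a1 was at 5894 to 146956. There 12 of 12, 10 of 10, 9 of 10 and 12 of 12 markers of these lists were called lower (37.7% of all genes). Without replicates 1 and 4 the medians were -0.42, -0.13, -0.02 and -0.20. In that fit 2 type 2 markers were called lower (Abca3 and Cxcl15) and 2 secretory ones higher (Aldh1a1 and Gsta3), against 3.09 and 1.19% of all genes. Without replicates 2, 3 and 5, the medians were -1.33, -1.21, -1.15 and -1.39, and 12, 7, 6 and 9 markers were called lower (21.5% of all genes).

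Proliferation genes went with the reporter. All 30 had a difference above 0 (7989 of 16815 over all genes), with a median of 1.15. None was called by limma, and 3 had an unadjusted p under 0.05 (2868 of 16815 over all genes). Mki67, the Ki-67 antigen of cycling cells, was at 249, 155, 156, 289.6 and 268 in tumour-free and 1011, 218, 336, 1051 and 151 in treated lungs. Replicates 1 and 4 were high and the others were at or near the tumour-free values, and without replicates 1 and 4 the median of the list was 0.07. Without replicates 2, 3 and 5, a fit chosen after seeing the data, it was 2.66. All 30 genes were called higher there (14.4% of all genes). The lungs kept in that fit were those with reporter transcripts, so this count is no independent support. Spp1, the osteopontin of tumour-associated macrophages and tumour cells, was at 761, 1231, 1722, 747 and 654 in tumour-free and 5473, 1035, 946, 13805 and 1527 in treated lungs. Ccl2, the chemokine that draws monocytes, was at 362, 27.6, 73.4, 1298 and 16.7 in treated lungs and 11.6 to 31.2 in tumour-free lungs. C1qb, a complement gene of macrophages, was at 1157, 506, 982, 4044 and 332 in treated and 372 to 540.1 in tumour-free lungs, with replicate 4 the highest for these 3 genes. Arg1, a gene of the tumour-associated myeloid list, followed the reporter less closely. It was at 216, 154, 1506, 1787 and 29.2 in treated and 46.2 to 55.0 in tumour-free lungs, with replicate 3 above replicate 1. Of the 24 type I interferon genes, 10 MHC class I and 10 MHC class II genes none was called by limma, with medians of -0.28, -0.21 and -0.23 and with 7, 2 and 3 at an unadjusted p under 0.05.

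None of the 14 T cell, 9 NK and cytotoxic, 13 B and plasma cell and 10 dendritic cell genes tested was called by limma. Of these lists 0, 0, 2 and 6 genes had an unadjusted p under 0.05, against 2868 of 16815 over all genes. Their medians were -0.24, -0.43, -0.46 and -0.64, all below that of all genes, and 5 of the dendritic cell genes were lower without overlap (6.55% of all genes). The 15 monocyte and interstitial macrophage genes, with a median of 0.30, and the 23 cytokine and chemokine genes, with a median of 0.13, had no call in limma and 4 and 8 at an unadjusted p under 0.05. Of the 17 genes of suppressive and tumour-associated myeloid cells and the 9 tumour cell candidates tested none was called by limma, with 4 and 1 at an unadjusted p under 0.05 and medians of 0.30 and 0.80. No gene of the lists of smooth muscle (8), mesothelium (6), erythroid cells (6), epithelial to mesenchymal transition (15) and plasminogen activation (6) was called by limma, with 0, 1, 0, 2 and 2 at an unadjusted p under 0.05, and their medians were -0.67, 0.26, 0.03, -0.51 and 0.21.

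Replicates 2 and 3 held transcripts of squamous epithelium and of skeletal muscle. Krt13, a keratin of oesophagus and other squamous linings, was at 0, 5.82, 3.83, 2.92 and 102 in tumour-free and 93.3, 37274, 114425, 61.2 and 65.8 in treated lungs. Acta1, the actin of skeletal muscle, was at 7.7, 3.94, 7.81, 3.9 and 32.6 in tumour-free and 71, 13217, 77473, 238 and 56.7 in treated lungs. Over the 6 squamous and basal markers the sum was 32.0 to 229 in tumour-free and 159 to 230472 in treated lungs, and over the 8 skeletal muscle markers it was 191 to 306 and 216 to 185509. HBSS replicates 1 and 4 also held Krt13, at 22601 and 9776. The part of this tissue in the results was not tested. No marker of either list was called by limma, with 3 and 3 at an unadjusted p under 0.05 (2868 of 16815 over all genes). The 8 genes with the largest spread among treated lungs, Serpinb3a, Krtdap, Cnfn, Krt13, Krt4, Calm4, Dsc1 and Lor, are genes of stratified epithelium. Krtdap, a protein of keratinocyte differentiation, was at 0, 1168, 4699, 2.45 and 2.09 in treated lungs, so the spread came from replicates 2 and 3. Cardiac muscle genes, which lie in the pulmonary vein wall of the mouse, were in every library, with Myh6 at 3984, 3336, 3812, 4163 and 4335 in tumour-free and 1252, 3391, 2577, 236 and 2893 in treated lungs.

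**Figure D5:**
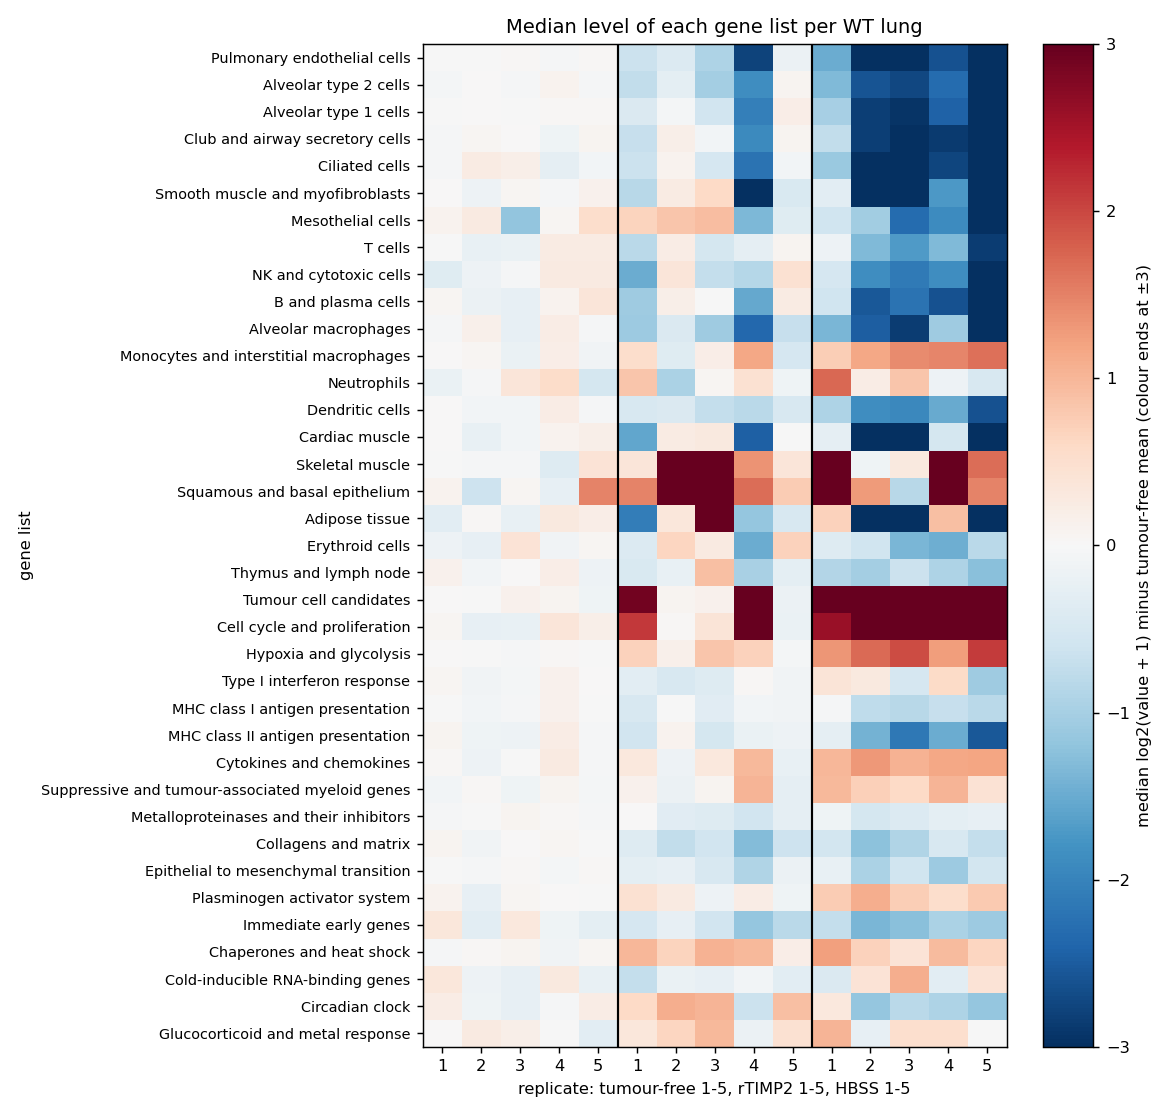
Colour gives the median over each gene list (rows) of log2(value + 1) minus the tumour-free mean in the 15 WT libraries (columns), ending at 3 in either direction. Treated replicates 1 and 4 share the tumour and proliferation lists with the HBSS lungs, replicates 2 and 3 have high squamous and skeletal muscle lists, and replicate 4 has low epithelial and endothelial lists.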

How the data were processed

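RNA of 10 lungs was compared, 5 WT rTIMP2 and 5 WT tumour-free, with 5 WT HBSS lungs beside them. The deposited signal is the authors' normalized count per gene and library, and per the submitters' processing notes Partek, STAR, Bowtie2 and DESeq2 were used with build mm10. How each was used, and how strand and multiply matching reads were treated, is not given in the sources used here. Only 78.5 to 81.7% of low values (under 20 steps, tolerance 0.02 of a step) in the 10 libraries were whole multiples of a step, so reads were not recovered and no count model was fitted. Values were analysed as log2(value + 1) in limma 3.58.1 (R 4.3.3) with a trended, robust spread, for genes with a value of at least 10 in 5 libraries (or in as many as the smaller group held), after tests on simulated data. A call is a Benjamini-Hochberg adjusted p under 0.05. Groups come from the sample titles, since the treatment labels of the treated mice count up from Timp2 and the tumour-free mice also carry the cell line's name. Genes named are the called genes, up to 12 rises and 12 falls with a mean of 50 or more, the 8 most uneven genes in treated lungs, and leading members of 38 gene lists; other list members were added after their values were seen. The members and lists were chosen with earlier results of these data known. Replicate numbers were not used to pair the samples in the main fit. No deposited table of the subcutaneous experiment was used. The values of 1 clock gene are not reported here. Promoters are from RefSeq (GRCm38.p6).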

Additional observations from a re-analysis of the deposited data

Results flagged for a closer look

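In groups of 5, a library was marked where its gap to the nearest other value exceeded 0.71 of the group's range, and chance marks about 1 in 20 groups. Of 142 groups examined over the genes printed, 12 had such a library. In treated lungs replicate 4 stood apart for Npas2 (0.816, others 12.3 to 16.1), Nr1d1 (336, others 2410 to 2796), Ccl2 (1298, others 16.7 to 362) and C1qb (4044, others 332 to 1157). Replicate 4 is also the treated library with the highest reporter value. Treated replicate 3 stood apart for Egr2 (43.6, others 60.4 to 66.8) and for the muscle actin Acta1 (77473, others 56.7 to 13217). In tumour-free lungs replicate 5 stood apart for the squamous genes Krt13 (102, others 0 to 5.82), Krt4 (81.4, others 0.970 to 4.87) and Lor (51.9, others 4.87 to 10.7), for Acta1 (32.6, others 3.90 to 7.81) and for Uty (0, others 0.958 to 0.975, which is 1 step or less). Tumour-free replicate 3 stood apart for Plk2 (1931, others 1367 to 1516).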

How the results depend on the processing

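The count of 35 genes called between treated and tumour-free lungs stayed within 1.5 times (28 to 42) with a pseudocount of 5, no filter, a filter at 50, median-of-ratios rescaling or voom weights. Of the 35 genes themselves, 23 were called with no filter and 33 to 35 in the other settings named. The count was 108 in 1 fit of all 6 intratracheal groups, where 55.6% of the calls were higher against 34.3%. That fit called 23 of the 35 genes. Leaving out 1 library gave 8 to 703 calls, with 703 without rTIMP2 replicate 4, 354 without replicate 5, and 19, 14 and 23 without replicates 1, 2 and 3. Without tumour-free replicates 1 to 5 there were 11, 13, 12, 8 and 13. It was 736 without rTIMP2 replicates 1 and 4 and 6309 without replicates 2, 3 and 5, the latter added after seeing the data. The 35 genes kept their direction wherever they were tested (Ccr3 did not pass the filter at 50), which follows from groups that do not overlap where only libraries are left out, and 8 were called in every fit that left out 1 library. Mmp14 turned from 0.13 to -0.87 without replicates 1 and 4.

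Treated against HBSS lungs gave 7773 calls in the fit of all 6 groups, 9319 without replicates 1 and 4, and 0 to 9584 with 1 library left out. It was 9584 without rTIMP2 replicate 4, 7308 without HBSS replicate 1 and 0 in limma without any of the others (rTIMP2 replicates 1, 2, 3 and 5, HBSS replicates 2 to 5), where 6134 to 7175 genes had an unadjusted p under 0.05. HBSS against tumour-free lungs stayed within 1.5 times in all alternatives. The Hmga2 difference ran from 1.74 to 3.64 with 1 library left out and passed the exact test without replicate 5. The causes were not tested.

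With the replicate number as a block, 5 genes were called between treated and tumour-free lungs and 0 between treated and HBSS lungs in limma (6376 at an unadjusted p under 0.05). Same-numbered samples correlated at -0.03 to 0.27, with 2 of 5 pairs over 0.1 and 1 of 5 libraries closest to its own number. The replicate 4 pair, at 0.27, was above the highest correlation between different numbers, 0.17. These correlations cannot show whether same-numbered samples share a batch, and the main fit used no pairing. Depth limits genes with values of a few reads, such as Ccr3 in treated lungs.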
